A study of Homo sapiens with 12 samples.

Results

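The mitochondrial ribosomal proteins were examined in HCT116 cells, a human colorectal carcinoma line, under 2 stressors. The members were all genes of the count tables whose symbol is MRPL or MRPS followed by a number and at most one letter A, B or C. This rule found 78 genes of 60708, of which 49 carry an MRPL symbol and 29 an MRPS symbol. Wild-type cells in RPMI1640 with FBS were treated for 24 h with oligomycin A (OA), which blocks the ATP synthase of mitochondria, or tunicamycin (TN), which blocks N-linked glycosylation and causes ER stress. Each stressor had 3 treated libraries and 3 DMSO libraries of its own, 12 in all, and the replicates are labelled as biological. The labels give 5 µg/mL for both agents, while the study's methods give a higher dose for OA. All libraries came from a single cell line, so that the comparisons describe this line only. In bulk RNA, fewer cells of a state and less RNA per cell cannot be told apart.

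The mitochondrial ribosome translates the small set of mRNAs encoded by mitochondrial DNA, all of which specify subunits of the respiratory chain and the ATP synthase. Its RNA comes from mitochondrial DNA, but every one of its proteins is encoded in the nucleus, made in the cytosol and imported. MRPL genes are named for the large subunit, which joins amino acids, and MRPS genes for the small subunit, which reads the mRNA. Some members have bacterial homologues and others are found in mitochondria alone. In the assembled particle, MRPS18A and MRPS30 lie in the large subunit despite their symbols, and MRPS36 is known as a subunit of the 2-oxoglutarate dehydrogenase complex.

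The libraries held 9884124 to 24983573 counts, and the signal recognition particle RNA RN7SL1 took 6.02% to 17.9% of them. In each group, 6 of 7 epithelial markers had 10 counts or more in a library, whereas 0 of 5 leukocyte markers did. The summed level of the 4 fibroblast markers was 1.19 to 2.19 CPM (counts scaled to library size by TMM) in OA's DMSO libraries and 3.84 to 12.4 CPM with OA, and it stayed at or below 4.11 CPM in the TN set. Of these markers, COL1A1 had 35, 29 and 43 counts in OA's DMSO libraries and 70, 124 and 33 counts with OA. COL1A2, DCN and LUM had at most 4 counts in any library. The 3 endothelial markers summed to at most 1.45 CPM in any library. Within their groups, OA replicate 2 and TN replicate 1 leaned toward GC-rich genes, by 0.40 and 0.54 on the log2 scale per 10 points of GC content. The DMSO libraries with the same numbers leaned the same way, by 0.30 and 0.27. OA replicate 1 and its same-numbered DMSO library leaned the other way, by -0.42 and -0.28. The part of these libraries in the members' values was measured by leaving them out.

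Because the members share a function and tend to be transcribed together, their promoters were read before their levels. RefSeq promoter windows on GRCh38.p14, running from 250 bases before the start to 50 bases after it, were matched for 69 of 78 members. The letters CCGGAAG, a core bound by ETS factors such as GABPA (also known as NRF-2), occurred on either strand in 29 of the 69 windows, which is 42.0%, against 10.3% of 35116 promoters of the same length. AAGATGGCG, the core of YY1 sites, occurred in 18.8% of the members and 1.75% of all promoters. The site of NRF1 (GCGC, any base, TGCGC), a regulator of nuclear genes for mitochondrial proteins, occurred in 11.6% and 5.78%. CCAAT, bound by NF-Y, occurred in 29.0% and 34.6%. TGATGCAA, a site of ATF4 dimers, and the cAMP response element TGACGTCA occurred in 0 of the 69 windows and in 0.866% and 1.85% of all promoters. A total of 43 members held an ETS, YY1 or NRF1 match, and no member held matches of different motifs that shared bases. The 35116 promoters were not matched to the members in GC content or expression, and the differences between the shares were not tested.

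The 5 promoters below belong to members on which the comparisons turn. MRPL16 and MRPL18 passed the test, MRPS34 and MRPL39 were among the members with the lowest fold change, and MRPL54 had the highest. Each runs 5′ to 3′ on the strand of its gene, from 150 bases before the start to 10 bases from it, and capitals mark the ETS core on either strand. The intervals are chr11:59810769-59810928 on the minus strand for MRPL16, chr6:159789662-159789821 on the plus strand for MRPL18, chr16:1773125-1773284 on the minus strand for MRPS34, chr21:25607472-25607631 on the minus strand for MRPL39 and chr19:3762532-3762691 on the plus strand for MRPL54.
MRPL16: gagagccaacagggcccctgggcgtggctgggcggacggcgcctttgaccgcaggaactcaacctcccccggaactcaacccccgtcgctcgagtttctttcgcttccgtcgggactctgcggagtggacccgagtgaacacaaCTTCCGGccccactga
MRPL18: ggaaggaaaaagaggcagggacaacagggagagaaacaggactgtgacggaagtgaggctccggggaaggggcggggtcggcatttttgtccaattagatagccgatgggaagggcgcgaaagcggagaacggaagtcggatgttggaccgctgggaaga
MRPS34: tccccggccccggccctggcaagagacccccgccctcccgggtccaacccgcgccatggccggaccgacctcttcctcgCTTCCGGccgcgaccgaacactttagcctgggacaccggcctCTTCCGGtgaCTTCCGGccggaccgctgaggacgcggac
MRPL39: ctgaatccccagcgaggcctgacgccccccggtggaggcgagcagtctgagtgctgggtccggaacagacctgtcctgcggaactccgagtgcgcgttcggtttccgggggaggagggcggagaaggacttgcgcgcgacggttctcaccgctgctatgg
MRPL54: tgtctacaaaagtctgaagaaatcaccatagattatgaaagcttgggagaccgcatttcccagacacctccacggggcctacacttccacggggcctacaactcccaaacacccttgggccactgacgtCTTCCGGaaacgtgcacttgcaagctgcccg
MRPS34, with the lowest fold change of the members with OA, held 3 ETS cores, and MRPL54, with the highest, held 1. MRPL16 held 1 at its start, and MRPL18 and MRPL39 held none in the stretch shown. The cores were thus found at both ends of the range of fold changes.

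The first comparison asked how the members differed between OA and its DMSO libraries. A total of 77 of 78 members had enough counts to be tested. Of these, 59 had a log2 fold change below 0 and 18 above 0, and the median was -0.40, whereas the median over 14681 tested genes was -0.02 with 51.2% below 0. Only MRPL16 passed an adjusted p of 0.05 in edgeR's quasi-likelihood test, so that 1 member fell and 0 rose, against 1.72% and 2.76% of all tested genes. At an unadjusted p under 0.05, 15 members were lower and 0 higher, against 10.3% and 13% of all genes. The 3 OA libraries lay wholly below the 3 DMSO libraries for 25 members and above them for 0, against 15.5% and 16.3% of all genes. DESeq2 called 4 members lower and 0 higher, against 4.41% and 6.19% of all genes. Libraries of OA and DMSO with the same replicate number had correlations of 0.62, 0.54 and 0.09 in their deviations. With the number as a block, 23 members were lower and 0 higher, namely 16 MRPL and 7 MRPS genes, against 15% and 11.7% of all genes.

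**Figure D1:**
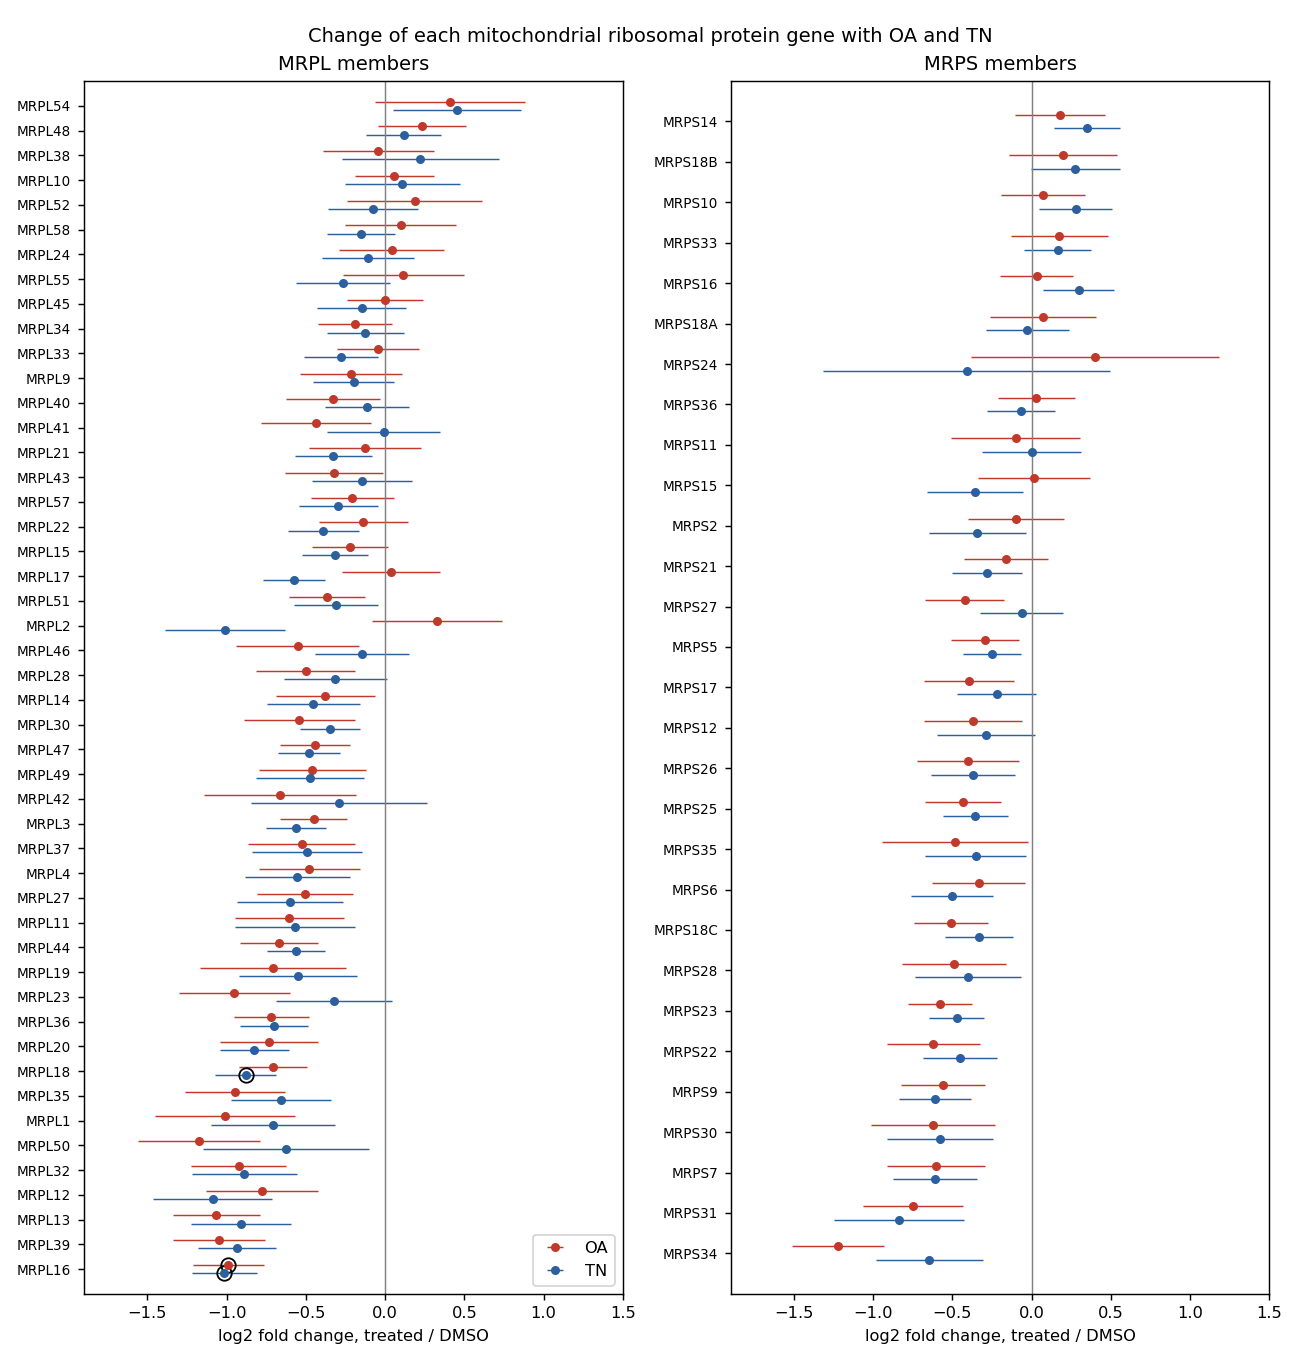
Log2 fold change of every tested member, treated over DMSO, with OA in red and TN in blue. Bars are the standard error of 3 against 3 libraries, black rings mark an adjusted p under 0.05, and genes are ordered by the mean of both values. Most points lie left of 0, and the rings are on MRPL16 in both comparisons and on MRPL18 with TN.

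MRPL16 is the homologue of a bacterial protein near the site where the aminoacyl-tRNA docks (ENSG00000166902.5, chr11:59806140-59810778, minus strand, GRCh38). Its level was 62.9, 72.6 and 62.1 CPM in the DMSO libraries and 32.3, 36.2 and 31.1 CPM with OA. All 3 treated libraries were thus close to each other and far below the controls. The log2 fold change was -0.99 with a standard error (SE) of 0.23 (n = 3 against 3, edgeR adjusted p = 0.0495). The call was kept without OA replicate 2 (adjusted p = 0.0381) and lost without any one of the other 5 libraries, where the fold change was -0.87 to -1.04 and the adjusted p 0.0554 to 0.222. The call of MRPL16 with OA was also lost when edgeR used DESeq2's size factors (adjusted p = 0.0515).

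The other members with the lowest values did not pass edgeR's test, although DESeq2 called MRPS34, MRPL13 and MRPL39 lower. MRPS34, a small subunit protein required for the assembly of that subunit, had the lowest fold change of all. It stood at 133.8, 232.3 and 153.5 CPM in DMSO and at 59.7, 78.7 and 84.3 CPM with OA. The groups did not overlap, and DMSO replicate 2 was the highest. Its log2 fold change was -1.22 (SE 0.29, edgeR adjusted p = 0.0535), and -0.91 without DMSO replicate 2. A share of 31.2% of its exon bases lies opposite the gene EME2.

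MRPL39, which lies near the exit tunnel through which the new chain leaves, had 54.2, 51.3 and 43.8 CPM in DMSO and 24.3, 16.9 and 31.0 CPM with OA. Every treated library was below every control, with a log2 fold change of -1.05 (SE 0.29, edgeR adjusted p = 0.0777). MRPL13, a large subunit protein with a bacterial homologue, went from 114.6, 92.7 and 93.2 CPM to 62.2, 36.1 and 45.1 CPM (log2 fold change -1.07, SE 0.27, edgeR adjusted p = 0.0657). MRPL50, which has no bacterial homologue, had 48.2, 23.7 and 30.6 CPM against 20.8, 9.48 and 15.0 CPM (log2 fold change -1.17, SE 0.39, edgeR adjusted p = 0.119). MRPL1, at the mobile stalk beside the tRNA exit site, had 43.3, 25.9 and 34.0 CPM against 24.6, 7.28 and 19.2 CPM (log2 fold change -1.01, SE 0.44, edgeR adjusted p = 0.214). In MRPL13, MRPL50 and MRPL1, OA replicate 2 was the lowest library, and the groups did not overlap. Without it, the log2 fold change of MRPL1 was -0.64.

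At the other end, 0 members rose with OA, and the highest values did not pass the test. MRPL54, a large subunit protein with no bacterial homologue, stood at 35.6, 67.7 and 41.2 CPM in DMSO and at 33.2, 112.6 and 46.0 CPM with OA. Only OA replicate 2 exceeded the controls. Its log2 fold change was 0.41 (SE 0.47, edgeR adjusted p = 0.633), and -0.30 without that library. MRPS18B behaved alike, at 140.6, 220.5 and 153.4 CPM against 129.0, 287.3 and 172.8 CPM (log2 fold change 0.19), and was at -0.20 without OA replicate 2. MRPL48 of the central protuberance had 56.1, 71.2 and 56.2 CPM against 51.7, 92.3 and 72.0 CPM (log2 fold change 0.23, SE 0.28). MRPL2, which lies by the peptidyl transferase centre, was low, at 5.09, 7.31 and 3.46 CPM against 4.06, 8.18 and 7.78 CPM (log2 fold change 0.33, SE 0.41). Over the alternative settings, the OA value of MRPL2 ran from 0.09 to 0.67. MRPS24, with 10, 17 and 5 counts in DMSO and 12, 1 and 9 counts with OA, was too low to resolve a difference. All of these groups overlapped.

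The second comparison put TN against its own DMSO libraries. Again 77 members were tested, 68 with a log2 fold change below 0 and 9 above 0, and the median was -0.35, against -0.03 over 14432 genes with 51.9% below 0. MRPL16 and MRPL18 fell and 0 members rose in edgeR's test, against 3.34% and 3.65% of all genes. At an unadjusted p under 0.05, 15 members were lower and 0 higher, against 12.1% and 12.2% of all genes. TN libraries lay wholly below DMSO for 23 members and above for 1, MRPS14, against 16.8% and 15.9% of all genes. DESeq2 called 4 members lower (MRPL16, MRPL18, MRPL20 and MRPL39) and 0 higher, against 5.43% and 5.44% of all genes. Libraries of TN and DMSO with the same replicate number deviated together (correlations of 0.64, 0.41 and 0.43), although TN replicate 2 correlated slightly more with DMSO replicate 3 (0.44). With the number as a block, 29 members were lower and 0 higher, namely 23 MRPL and 6 MRPS genes, against 15.3% and 11.8% of all genes.

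MRPL16 had 77.6, 62.4 and 67.2 CPM in these DMSO libraries and 37.1, 35.9 and 29.5 CPM with TN. As with OA, the treated libraries lay close together and about as far below the controls. Its log2 fold change was -1.02 (SE 0.20, n = 3 against 3, edgeR adjusted p = 0.0291). MRPL18 belongs to the central protuberance, where its bacterial homologue binds a short rRNA of the large subunit (ENSG00000112110.10, chr6:159789812-159798436, plus strand, GRCh38). It stood at 132.7, 103.1 and 112.9 CPM in DMSO and at 66.2, 60.4 and 62.9 CPM with TN. The log2 fold change was -0.88 (SE 0.19, edgeR adjusted p = 0.0392). Both calls were kept without TN replicate 1 (adjusted p = 0.0142 for MRPL16 and 0.0225 for MRPL18). They were lost without any one of the other 5 libraries, with an adjusted p of 0.0807 to 0.125 for MRPL16 and 0.102 to 0.16 for MRPL18. With OA, MRPL18 had 108.4, 112.9 and 100.7 CPM in DMSO against 62.8, 72.0 and 62.6 CPM, also without overlap (log2 fold change -0.71, SE 0.21, edgeR adjusted p = 0.0997).

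**Figure D2:**
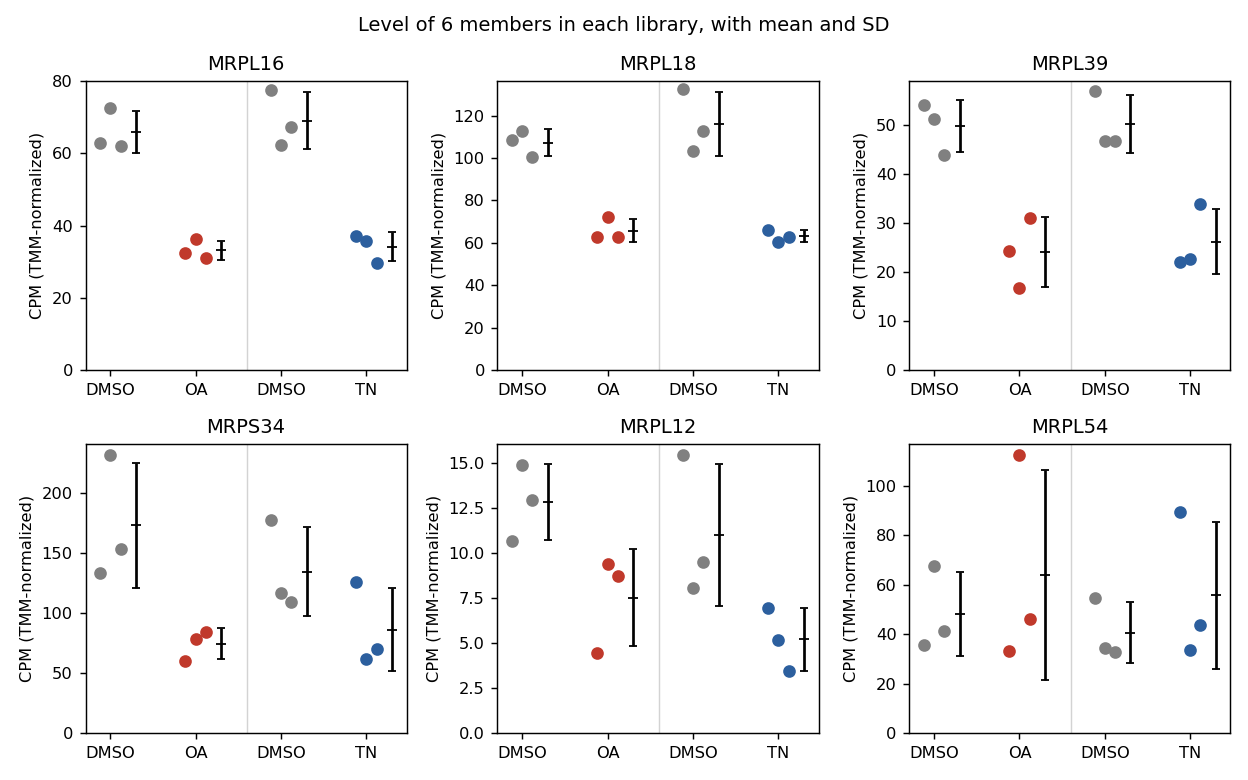
Level of 6 members in CPM in every library (points), with the mean and SD of each group of 3 (bars), for DMSO and OA on the left and DMSO and TN on the right of each panel. MRPL16, MRPL18 and MRPL39 show treated libraries below all controls in both comparisons, whereas MRPL54 overlaps and has a single high library with OA and with TN.

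MRPL12, the stalk protein that recruits translation factors to the ribosome, had the lowest fold change with TN. It stood at 15.4, 8.03 and 9.50 CPM in DMSO and 6.95, 5.16 and 3.43 CPM with TN, with no overlap. The log2 fold change was -1.09 (SE 0.37, edgeR adjusted p = 0.126; with the replicate block 0.0156). Its level is uncertain, since 69.5% of its exon bases are shared on the same strand with a gene that was listed at 0, and reads there could be left out of the count. MRPL39 had 57.0, 46.7 and 46.7 CPM against 22.0, 22.8 and 33.9 CPM (log2 fold change -0.93, SE 0.25, edgeR adjusted p = 0.0646; with the block 0.0106). MRPL13 had 113.7, 117.4 and 121.2 CPM against 34.9, 71.5 and 81.2 CPM (log2 fold change -0.91, SE 0.32, edgeR adjusted p = 0.133; with the block 0.0154). In MRPL13, TN replicate 1 was the lowest library, and without it the log2 fold change was -0.58 (edgeR adjusted p = 0.0458). MRPL2 had 7.67, 4.33 and 4.75 CPM against 3.90, 2.31 and 2.15 CPM (log2 fold change -1.01, SE 0.38, edgeR adjusted p = 0.156; with the block 0.0362).

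The members with the highest fold change with TN were MRPL54 and 4 small subunit genes. MRPL54 was at 54.7, 34.3 and 32.9 CPM in DMSO and 89.7, 33.7 and 43.7 CPM with TN, where replicate 1 stood apart. Its log2 fold change was 0.45 (SE 0.40, edgeR adjusted p = 0.546), and -0.04 without TN replicate 1. MRPS14, a homologue of a protein in the head of the bacterial small subunit, was at 39.4, 30.6 and 40.5 CPM against 50.1, 42.3 and 48.0 CPM. All TN libraries were above all controls, with a log2 fold change of 0.35 (SE 0.21, edgeR adjusted p = 0.36). A share of 14.9% of its exon bases lies opposite CACYBP. MRPS16 had 169.5, 128.3 and 122.9 CPM against 201.5, 149.5 and 165.6 CPM (log2 fold change 0.30, SE 0.22). MRPS10 had 102.8, 106.5 and 102.8 CPM against 91.9, 135.9 and 150.3 CPM (log2 fold change 0.28, SE 0.23). MRPS18B had 186.7, 130.5 and 124.3 CPM against 239.9, 142.3 and 152.4 CPM (log2 fold change 0.28, SE 0.28). The groups overlapped in MRPL54, MRPS16, MRPS10 and MRPS18B.

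The 2 comparisons, which share no library, were then set side by side. A total of 58 members were below 0 in both and 8 above 0 in both. There were 10 members above 0 with OA and below 0 with TN, and 1 of the reverse kind. The treated libraries lay below the controls without overlap in both comparisons for 17 members, against 10.2% of 14071 genes tested in both. An unadjusted p under 0.05 and a lower level in both were found for 9 members, against 7.3% of all genes. Across the 77 members, the fold changes of OA and TN had a Pearson's r of 0.70 and a Spearman's rho of 0.73. Genes are not independent replicates, and these values are a description. The sign counts and correlations were not taken over all genes, so they cannot show a likeness particular to the members.

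**Figure D3:**
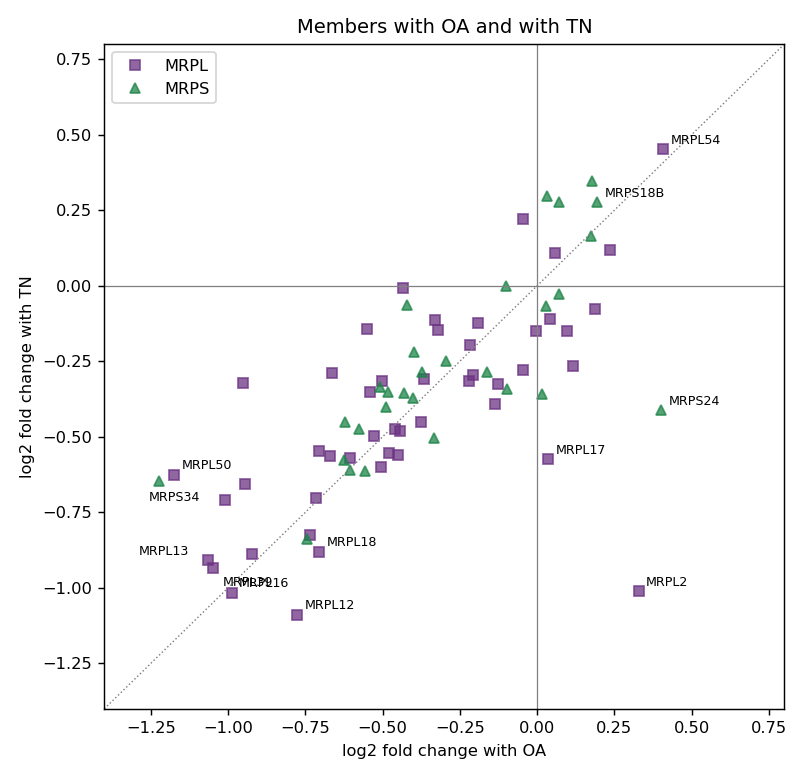
Log2 fold change of each tested member with OA (horizontal) and with TN (vertical), MRPL genes as squares and MRPS genes as triangles, with the dotted line marking equal values. Most members lie in the lower left, and MRPL2 lies farthest from the line, at 0.33 with OA and -1.01 with TN.

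A test of the 2 stressors against each other took the OA change minus the TN change over all 12 libraries. In edgeR, 0 of 15429 genes passed, 2.26% had an unadjusted p under 0.05, and DESeq2 called 0 members. A single member, MRPL2, had an unadjusted p under 0.05. Its log2 difference was 1.27 (SE 0.55, unadjusted p = 0.0383), and 35.0% of its exon bases are shared with other genes. The next were MRPL17, near the exit tunnel, at 0.52 (SE 0.33, unadjusted p = 0.144) and MRPS34 at -0.63 (SE 0.44, unadjusted p = 0.174). MRPL17 had 108.6, 144.3 and 123.9 CPM in DMSO against 87.9, 185.2 and 113.4 CPM with OA, which overlapped. With TN, it had 129.1, 134.7 and 123.8 CPM against 101.6, 80.5 and 78.3 CPM, which did not (log2 fold change -0.57, edgeR adjusted p = 0.125; with the replicate block 0.0239). MRPS34 had 177.3, 117.0 and 109.2 CPM against 125.7, 62.0 and 70.4 CPM with TN, where the groups overlapped (log2 fold change -0.65, edgeR adjusted p = 0.288; with the block 0.0134). It was -0.41 without DMSO replicate 1 and -0.99 without TN replicate 1.

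The large and small subunit genes were compared next. With OA, the median log2 fold change was -0.45 over 48 MRPL genes, 39 of them below 0, and -0.37 over 29 MRPS genes, 20 of them below 0. With TN, it was -0.37 over the MRPL genes, 44 below 0, and -0.34 over the MRPS genes, 24 below 0. Counting members by their place in the assembled particle gave -0.45 and -0.38 with OA, and -0.37 and -0.35 with TN. In single libraries, the MRPL median minus the MRPS median, each on the log2 CPM scale relative to the DMSO mean, was 0.00 ± 0.04 in OA's DMSO libraries and -0.07 ± 0.12 with OA (SD, n = 3). It was -0.02 ± 0.06 in the DMSO libraries of TN and -0.04 ± 0.23 with TN. The difference between the subunit medians was thus smaller than its spread between the treated libraries in both comparisons. At an unadjusted p under 0.05 with OA, 12 MRPL genes (25%) and 3 MRPS genes (10.3%) were lower, where all genes gave 10.3%. With TN, 13 MRPL genes (27.1%) and 2 MRPS genes (6.9%) were lower, where all genes gave 12.1%. Groups without overlap and lower were found for 31.2% of MRPL and 34.5% of MRPS genes with OA, and for 33.3% and 24.1% with TN, against 15.5% and 16.8% of all genes. The differences between these shares were not tested. In TN replicate 1 the difference was 0.22, and in TN replicates 2 and 3 it was -0.13 and -0.21.

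**Figure D4:**
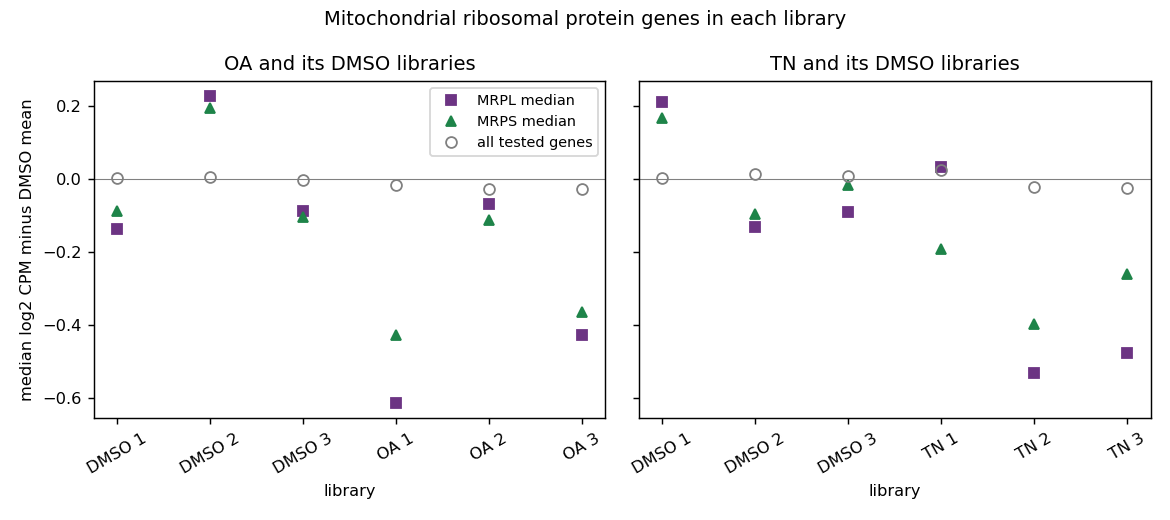
Median over MRPL genes (squares), MRPS genes (triangles) and all tested genes (open circles) of log2 CPM minus the mean of the DMSO libraries, in each of the 12 libraries. OA replicate 2 and TN replicate 1 lie closer to the controls than the other treated libraries do.

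Over all members, the median on this scale was -0.53, -0.09 and -0.40 in OA replicates 1, 2 and 3 and -0.05, -0.48 and -0.41 in TN replicates 1, 2 and 3. In the DMSO libraries, it was -0.12, 0.22 and -0.09 for OA and 0.18, -0.11 and -0.07 for TN. OA replicate 2 and TN replicate 1 were the treated libraries that leaned most toward GC-rich genes, and the members' median GC content was 46.4%, against 48.2% and 48.0% of all tested genes in the 2 comparisons. Without OA replicate 2, the median log2 fold change of the members was -0.45, and 1 member was called lower, against 2.37% of all genes. Without DMSO replicate 2 of OA, the control that leaned the same way, it was -0.22 with 51 of 77 members below 0, and without OA replicate 1 it was -0.27. The OA median thus depended on single libraries in size. Without TN replicate 1, it was -0.40, and 12 members were called lower, against 8.54% of all genes. Without DMSO replicate 1 of TN, it was -0.26 with 59 of 77 below 0 and 0 members called, against 1.46% of all genes lower. As a share of all counts, the members took 0.668% ± 0.043 in DMSO and 0.446% ± 0.015 with OA (SD, n = 3), and 0.634% ± 0.027 and 0.451% ± 0.008 for TN. RN7SL1 took 6.02% to 8.11% of the counts in OA's controls and 8.40% to 17.9% with OA, and 6.23% to 7.502% and 9.22% to 13.3% for TN. OA replicate 1 and DMSO replicate 2 of OA were close in RN7SL1 (8.40% and 8.11%) and had member shares of 0.456% and 0.717%. They leaned opposite ways in GC content (-0.42 and 0.30), and 0.717% was the highest share of any library. The part of RN7SL1 in the member shares was not tested. Scaled by TMM, the members summed to 6219 ± 748 CPM and 4878 ± 906 CPM for OA, and to 6028 ± 565 CPM and 4800 ± 687 CPM for TN.

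Members were further grouped by their place in the ribosome. The 9 proteins of the central protuberance, the crest where the subunits meet the tRNAs, had a median log2 fold change of -0.04 with OA and -0.14 with TN, and 5 and 7 were below 0. MRPL18 with TN was their one called member, or 11.1%, against 3.34% of all genes lower. With the replicate block MRPL27 was called lower too (log2 fold change -0.67, edgeR adjusted p = 0.0245), where 15.3% of all genes were called lower. The 7 proteins listed for the exit tunnel, which need not be all of those there, had medians of -0.14 and -0.39, and 5 and 7 were below 0. Among these is MRPL44, which carries a ribonuclease fold. It was at 71.3, 76.1 and 70.0 CPM in DMSO and 47.1, 35.5 and 54.0 CPM with OA (log2 fold change -0.67, SE 0.25, edgeR adjusted p = 0.151). With TN, it was at 73.1, 73.1 and 76.4 CPM against 50.04, 46.6 and 54.2 CPM (log2 fold change -0.56, SE 0.18, edgeR adjusted p = 0.111; with the replicate block 0.0229). MRPL44 thus lay below its controls without overlap under both stressors.

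The 3 proteins of the factor-binding stalk had fold changes on both sides of 0, and the differences between them were not tested. MRPL10, which anchors the stalk, had 86.4, 121.9 and 86.7 CPM in DMSO and 86.1, 106.2 and 114.9 CPM with OA (log2 fold change 0.06), and 114.3, 81.5 and 76.4 CPM against 153.7, 72.8 and 67.1 CPM with TN (log2 fold change 0.11). MRPL11, at the base of the stalk, had 167.6, 248.5 and 173.3 CPM against 84.6, 191.9 and 111.2 CPM with OA (log2 fold change -0.60, SE 0.34) and 233.2, 145.6 and 155.8 CPM against 188.7, 74.0 and 97.4 CPM with TN (log2 fold change -0.57, SE 0.38; with the block, edgeR adjusted p = 0.0232). MRPL12 with OA had 10.6, 14.9 and 12.9 CPM against 4.42, 9.38 and 8.71 CPM (log2 fold change -0.78, SE 0.36, edgeR adjusted p = 0.234). Without OA replicate 2 and without TN replicate 1, MRPL11 was at -1.02 in both comparisons, and it was nearest to 0 without DMSO replicate 2 of OA (-0.37) and without TN replicate 2 (-0.32). MRPL10 and MRPL11 overlapped between groups under both stressors. By origin, 45 members listed with a bacterial homologue had medians of -0.38 with OA and -0.39 with TN. The 32 members listed as mitochondrion-specific had medians of -0.43 and -0.29. The lists went mostly by the number in the symbol and are approximate. They put MRPS18A and MRPS18B among the mitochondrion-specific members, although both are related to a bacterial protein.

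MRPS18A, MRPS18B and MRPS18C are paralogs related to 1 bacterial protein, and they occupy separate places in the human particle. MRPS18C, the form at the bacterial position, had 62.8, 60.3 and 57.6 CPM in DMSO and 41.6, 49.9 and 35.5 CPM with OA. Its groups did not overlap (log2 fold change -0.51, SE 0.24, edgeR adjusted p = 0.238). With TN, it had 65.7, 59.1 and 73.8 CPM against 43.3, 53.6 and 60.7 CPM (log2 fold change -0.33, SE 0.21). A share of 40.2% of its exon bases lies opposite ABRAXAS1. MRPS18A, in the large subunit, had 80.6, 111.4 and 85.0 CPM against 65.9, 145.9 and 79.4 CPM with OA (log2 fold change 0.07) and 98.1, 87.2 and 78.0 CPM against 116.8, 66.6 and 75.2 CPM with TN (log2 fold change -0.03). In both comparisons MRPS18C had the lowest log2 fold change of the paralogs and MRPS18B the highest.

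Members with a place outside the usual subunit roles were also read. MRPS30, which lies in the large subunit, had 109.5, 70.8 and 78.1 CPM in DMSO and 83.4, 28.4 and 55.8 CPM with OA (log2 fold change -0.62, SE 0.39), and 77.5, 124.8 and 123.6 CPM against 43.4, 89.1 and 85.8 CPM with TN (log2 fold change -0.58, SE 0.33; with the block, edgeR adjusted p = 0.0194). MRPL58, also known as ICT1, releases stalled chains from the ribosome. It had 62.6, 75.5 and 60.1 CPM against 50.4, 111.6 and 50.1 CPM with OA (log2 fold change 0.10) and 65.3, 63.7 and 59.8 CPM against 70.4, 50.7 and 49.0 CPM with TN (log2 fold change -0.15). MRPS36 had 22.5, 26.5 and 23.1 CPM against 25, 27.6 and 21.1 CPM with OA (log2 fold change 0.03) and 27.8, 26.3 and 31.2 CPM against 22.1, 30.1 and 29.3 CPM with TN (log2 fold change -0.07). The values of MRPS30 moved with single libraries. With OA, its log2 fold change was -0.36 without DMSO replicate 1, -0.29 without OA replicate 2 and -1.05 without OA replicate 1, and with TN it was -0.26 without TN replicate 1. Groups of MRPS30, MRPL58 and MRPS36 overlapped under both stressors.

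MRPL53 was the member that could not be tested. It had 7 counts in OA replicate 2 and 0 in the other 11 libraries, a level at which 0 counts allow up to 3, and 99.4% of its exon bases are shared with CCDC142 or with a gene on the opposite strand. Over all members, 29 share over 10% of their exon bases with another gene on either strand. For the 49 tested members that do not, the median log2 fold change was -0.40 with OA and -0.35 with TN. Pseudogenes named for members filled 79 rows, of which 3 had 10 counts or more in any library. Per kilobase of exon, MRPL41 had the highest level in the DMSO libraries, at 186 ± 68 CPM per kb in the OA set and 154 ± 38 in the TN set (SD, n = 3). The median level was 30.3 over MRPL and 15.4 CPM per kb over MRPS genes in the DMSO libraries of OA, and 27.9 and 18.3 in those of TN.

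The likeness of members was read from their deviations from the group means over 12 libraries. MRPL54 and MRPS18B were the most alike (r = 0.99), followed by MRPL14 with MRPL37 (r = 0.99) and MRPL28 with MRPL49 (r = 0.99), and the median over 2926 pairs was 0.43. These points share library depth and GC slope. Members with an ETS core had a median log2 fold change of -0.37 with OA and -0.30 with TN, and members without one had -0.43 and -0.40. For the YY1 core, the medians were -0.14 and -0.29 with a match (13 members) and -0.42 and -0.35 without. For CCAAT, they were -0.49 and -0.49 with a match (20 members, 18 and 20 of them below 0). Without CCAAT, they were -0.33 and -0.33 (48 members, 35 and 40 of them below 0). For NRF1, they were -0.29 and -0.40 with a match (8 members) and -0.43 and -0.35 without.

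The members were finally set beside genes that work with them. The 5 ribosomal proteins of mitochondria with other symbols had medians of -0.48 with OA and -0.30 with TN, and 0 passed edgeR's test. PTCD3, which binds the small subunit and aids translation, had 201.5, 191.5 and 190.9 CPM in DMSO and 157.6, 77.8 and 149.8 CPM with OA (log2 fold change -0.60, edgeR adjusted p = 0.267). With TN, its log2 fold change was -0.52 (SE 0.20, edgeR adjusted p = 0.164; with the replicate block 0.0319). CHCHD1, also of the small subunit, had log2 fold changes of -0.70 with OA (SE 0.22, edgeR adjusted p = 0.113) and -0.30 with TN, and AURKAIP1 -0.48 and -0.39. Of the mitochondrial translation factors, 15 and 14 were tested, with medians of -0.34 and -0.39, and 0 passed edgeR's test in either comparison, where 0 with OA and 2 with TN had an unadjusted p under 0.05 and a lower level. The latter are 14.3%, against 12.1% of all genes. With the replicate block, 2 were called lower and 0 higher with TN, or 14.3% against 15.3% of all genes lower. GFM1, the elongation factor that moves the ribosome along, had log2 fold changes of -0.84 with OA (SE 0.40, edgeR adjusted p = 0.244) and -0.76 with TN (SE 0.25, edgeR adjusted p = 0.11; with the block 0.00791). Over the alternative settings, the OA value ran from -1.21 to -0.51 for GFM1, from -0.79 to -0.34 for PTCD3 and from -0.73 to -0.19 for AURKAIP1. The TN value ran from -0.64 to -0.34 for PTCD3, from -0.77 to -0.25 for AURKAIP1 and from -0.47 to -0.19 for CHCHD1.

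Among factors that assemble the ribosome, 25 and 24 genes were tested, with medians of -0.36 and -0.32. With OA, 0 passed edgeR's test and 3 had an unadjusted p under 0.05 and a lower level, or 12% against 10.3% of all genes. With TN, MALSU1 fell and NGRN rose, each 4.17% of the list, against 3.34% and 3.65% of all genes. The shares were thus close to those over all genes. With the replicate block, 5 were called lower and 1 higher with TN, or 20.8% and 4.17% against 15.3% and 11.8%. MALSU1, which binds the large subunit late in its assembly, had 70.6, 62.6 and 74.3 CPM in DMSO and 36.9, 39.6 and 42.8 CPM with TN (log2 fold change -0.80, SE 0.19, edgeR adjusted p = 0.0493). NGRN, needed for the rRNA of the large subunit, had 24.6, 24.998 and 21.1 CPM against 48.2, 42.4 and 39.4 CPM (log2 fold change 0.88, SE 0.20, edgeR adjusted p = 0.0431). Both genes were separated from their controls in opposite directions. Both calls were kept without TN replicate 1 (adjusted p = 0.0309 and 0.0199) and lost without any one of the other 5 libraries, where the adjusted p was 0.133 to 0.228 for MALSU1 and 0.0873 to 0.201 for NGRN. The call of MALSU1 with TN was also lost with DESeq2's size factors in edgeR (0.0575), with both other filters (0.0885 and 0.0522), without small noncoding RNAs in the scaling (0.0623) and with the GC offset (0.113), and that of NGRN with TN by total counts (0.0525) and without a filter (0.0923). MALSU1 with OA had a log2 fold change of -0.89 (SE 0.22, edgeR adjusted p = 0.0625). MTERF3, which acts on rRNA of the large subunit, had -1.05 with OA (edgeR adjusted p = 0.159) and -1.26 with TN (edgeR adjusted p = 0.0974; with the block 0.00312).

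Of regulators of nuclear genes for mitochondria, a list that also held the mitochondrial transcription factor TFAM, 9 were tested, with medians of -0.55 and -0.54. With TN, MYC and PPARGC1B fell, which is 22.2% of the list against 3.34% of all genes, and with the replicate block 5 were called lower and 1 higher, or 55.6% and 11.1% against 15.3% and 11.8% of all genes. MYC, a transcription factor that drives ribosome production, had 257.0, 205.5 and 198.5 CPM in DMSO and 121.8, 90.0 and 78.6 CPM with TN (log2 fold change -1.19, SE 0.24, edgeR adjusted p = 0.0292). PPARGC1B, a coactivator of mitochondrial genes, had 8.54, 14.0 and 9.87 CPM against 3.79, 4.33 and 3.86 CPM (log2 fold change -1.43, SE 0.28, edgeR adjusted p = 0.0274). MYC kept its call without TN replicate 1, and PPARGC1B without TN replicate 1 or DMSO replicate 1. Without each other library, the adjusted p was 0.0656 to 0.113 for MYC and 0.0906 to 0.129 for PPARGC1B. With OA, their log2 fold changes were -0.65 (edgeR adjusted p = 0.196) and -0.82 (edgeR adjusted p = 0.239). The mitochondrial rRNA of the large subunit, MT-RNR2, had 166, 186 and 331 counts in DMSO and 347, 473 and 370 counts with OA, and rose by 1.76 on the log2 scale (SE 0.40, edgeR adjusted p = 0.0477). It lost this call without 5 of the 6 libraries, the exception being OA replicate 1 (adjusted p = 0.0338), and the adjusted p of MT-RNR2 with OA was 0.0764 with total counts. With TN, its log2 fold change was 0.61 (SE 0.35, edgeR adjusted p = 0.342). The labels name a total RNA kit of the kind that removes rRNA, while the study speaks of mRNA-seq. Under either, these counts are a remainder of the rRNA, and the part of the library preparation in the result was not tested. MT-RNR1, the rRNA of the small subunit, had 0 to 21 counts, too few for the test of either stressor.

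**Figure D5:**
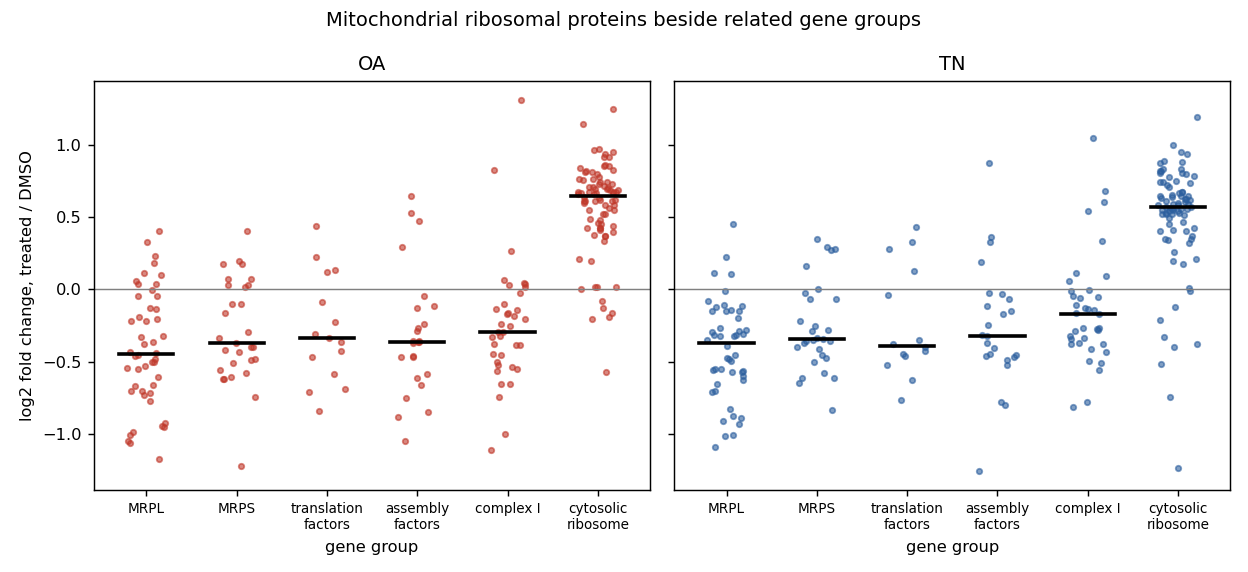
Log2 fold change of each tested gene, treated over DMSO, for OA and for TN, in 6 gene groups, with black lines at the medians. The mitochondrial groups lie mostly below 0, while the cytosolic ribosomal proteins lie mostly above 0, with medians of 0.65 with OA and 0.57 with TN.

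The cytosolic ribosomal proteins, which build the ribosome that makes all members, lay on the other side of 0. Of 84 tested genes, 78 were above 0 with OA and 75 with TN, with median log2 fold changes of 0.65 and 0.57. In single libraries, their median on the log2 CPM scale relative to the DMSO mean was 0.26, 1.07 and 0.49 in OA replicates 1, 2 and 3 and 1.05, 0.27 and 0.35 in TN replicates 1, 2 and 3. DMSO replicates 1, 2 and 3 were at -0.11, 0.19 and -0.07 for OA and at 0.28, -0.17 and -0.11 for TN. OA replicate 2 and TN replicate 1, which leaned toward GC-rich genes, were thus the highest, as were the DMSO libraries of the same numbers among the controls. Without OA replicate 2, the median log2 fold change was 0.35 with 76 of 84 genes above 0, and without TN replicate 1 it was 0.32 with 72 above 0. RPL10, a protein of the large cytosolic subunit, rose with TN, from 1208, 851 and 865 CPM to 3090, 1799 and 1810 CPM (log2 fold change 1.20, SE 0.28, edgeR adjusted p = 0.0496). This call was kept without TN replicate 1, and the adjusted p was 0.0511 to 0.181 without each of the other libraries. Of the 84 genes, RPL10 was the single one called with TN, or 1.19%, against 3.65% of all genes higher. With the replicate block, 62 were called higher with TN and 1 lower, or 73.8% and 1.19%, against 11.8% and 15.3% of all genes. At an unadjusted p under 0.05, 41 were higher and 0 lower with OA, and 36 were higher and 1 lower with TN. These are 48.8% and 42.9% higher, against 13% and 12.2% of all genes. With OA, 0 passed edgeR's test at an adjusted p of 0.05, and RPL10 had a log2 fold change of 1.25 (SE 0.35, edgeR adjusted p = 0.0819). The 37 subunits of complex I, whose mitochondrially encoded partners are products of the mitochondrial ribosome, had medians of -0.29 and -0.17, and 0 passed edgeR's test. At an unadjusted p under 0.05, 5 were lower and 1 higher with OA, or 13.5% and 2.7% against 10.3% and 13% of all genes. With TN, 2 were lower and 2 higher, or 5.41% each against 12.1% and 12.2%. With the replicate block, 4 were called lower and 2 higher with TN, or 10.8% and 5.41% against 15.3% and 11.8% of all genes. The lower counts of complex I were thus near or under the share over all genes. NDUFB3 had the lowest p with OA (log2 fold change -1.001, SE 0.24, edgeR adjusted p = 0.0543) and NDUFB6 with TN (log2 fold change -0.81, SE 0.21, edgeR adjusted p = 0.059; with the block 0.00682).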

How the data were processed

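mRNA levels were measured by RNA-seq in 12 libraries of HCT116 cells, grouped by the sample labels. Raw counts per gene were deposited by the authors, who mapped the reads on hg38 with STAR and used its gene counts option, which takes a read that overlaps a single gene. The strand column is not given in the sources used here. Deposited columns of the authors' own comparisons (log2 fold change, standard error, p-value) were not used. Of the columns of per-sample values, all were assigned.

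After filterByExpr and TMM scaling, two-sided quasi-likelihood tests were run in edgeR 4.0.16 (R 4.3.3), with p-values adjusted over every tested gene by Benjamini-Hochberg, for each stressor without a replicate term. The OA minus TN contrast used all 12 libraries. The SE is the log2 fold change over the square root of F. DESeq2 1.42.0, other scalings and filters, a GC offset, a replicate block, and leaving out each library were the alternatives, and a restriction to members with under 10% of exon bases shared was added after seeing the data. A prior count of 2 was used for the log2 CPM of libraries. Gene models, exon overlaps and GC content came from a later Gencode release on GRCh38, and promoters from RefSeq. Totals of 9884124 to 24983573 counts mean that 3 replicates limit well expressed members, and a count of 0 allows up to 3 counts, for counting error only. Replicates of a group differed by more than counting noise, with a chi-square per gene of at least 6.25.

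In the TN set, deviations from the group means of same-numbered libraries had correlations of 0.64, 0.41 and 0.43 for numbers 1, 2 and 3, so that blocked values are given beside the TN results whose call they change. TN replicate 2 correlated slightly more with DMSO replicate 3 (0.44). The numbers come from the labels. Blocked adjusted p-values of single genes are given for TN only, so they cannot rank TN above OA. In simulated counts, 39 of 50 genes raised 4-fold were called for OA and 37 for TN, 34 and 34 of 50 lowered to 0.25-fold, and 1 and 3 of 50 raised 2-fold.

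The members and all gene lists were chosen with earlier results of these data known. Members were named if called, if among the 5 highest or 5 lowest fold changes of a comparison, if among the 3 lowest p of the contrast, if not tested, or if in a fixed set (MRPS18 paralogs, stalk, MRPS30, MRPS36, MRPL44, MRPL58). Of other lists, up to 3 genes with the lowest p were eligible.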

Additional observations from a re-analysis of the deposited data

How the results depend on the processing

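The members' median log2 fold change stayed below 0 under every setting run, from -0.62 to -0.22 with OA and from -0.51 to -0.26 with TN. Total-count scaling moved the median of all genes to -0.23 and -0.18, and the members' medians of -0.62 and -0.51 are to be read against it. The number of members called depended on the setting, and the cause was not tested. With OA, 1 member was called lower (1.72% of all genes were). The count, with the share of all genes called lower, was 4 with DESeq2 (4.41%), 0 with its size factors in edgeR (1.7%, and 14 members at an unadjusted p under 0.05 in either direction), 5 with total counts (2.69%), 5 without a filter (2.4%), 2 with at least 10 counts in every library (2.13%), 23 with a replicate block (15%), 20 with a GC offset (10.6%), 30 with both (17.1%) and 7 in 1 fit of all 12 libraries (5.11%). Without small noncoding RNAs in the scaling, 1 member was called lower with OA (1.71%). With TN, 2 were called lower (3.34% of all genes), and 4 with DESeq2 (5.43%) and 6 with total counts (6.06%). The TN count was 2 with DESeq2's size factors in edgeR (3.44%), 2 without small noncoding RNAs in the scaling (3.45%) and 3 without a filter (3.22%). It was 2 with at least 10 counts in every library (4.2%) and 3 in 1 fit of all 12 libraries (4.06%). It was 29 with a replicate block (15.3%) and 21 with a GC offset (12.7%). With both, 44 were lower (23%) and 2 higher (16.2%, MRPL54 and MRPS16). Leaving out each library in turn gave 0 to 2 with OA (0% to 2.88% of all genes, 2 without OA replicate 1) and 0 to 12 with TN (0.484% to 8.54%, 12 without TN replicate 1). The replicate numbers were taken to pair libraries where all 3 correlations were over 0.1, which held for TN and not for OA (0.62, 0.54 and 0.09). In neither set did every library correlate best with its own number. The MRPL minus MRPS difference stayed between -0.16 and 0.04 with OA and between -0.17 and -0.02 with TN. Some named genes that edgeR did not call without the block changed sign under other settings. With total counts, the OA values were -0.077 for MRPS18B, -0.014 for MRPL48, -0.084 for MRPS10, -0.19 for MRPS16, -0.078 for MRPS14, -0.24 for MRPL17, -0.21 for MRPS18A, -0.15 for MRPL10, -0.18 for MRPS36, -0.19 for MRPL58 and -0.069 for GFM2. With total counts, the TN values were -0.042 for MRPL48 and -0.098 for MRPL10. With the replicate block, the OA values were -0.024 for MRPL17 and -0.0025 for MRPL58. With the GC offset and the block, the OA values were -0.024 for MRPL17 and -0.0015 for MRPL58. In 1 fit of all 12 libraries, the OA values were -0.053 for MRPS16, -0.065 for MRPL17, -0.032 for MRPS18A, -0.026 for MRPL10, -0.047 for MRPS36 and -0.0061 for MRPL58. Leaving out single libraries gave OA ranges of -0.33 to 0.23 for MRPL17, -0.063 to 0.19 for MRPS16, -0.044 to 0.28 for MRPL10, -0.062 to 0.15 for MRPS36, -0.17 to 0.26 for MRPS10, -0.20 to 0.45 for MRPS18B, -0.30 to 0.76 for MRPL54, -0.12 to 0.32 for MRPS14, -0.36 to 0.27 for MRPS18A and -0.40 to 0.28 for MRPL58. Leaving out single libraries gave TN ranges of -0.27 to 0.12 for MRPS18A, -0.019 to 0.32 for MRPL48, -0.34 to 0.29 for MRPL10, -0.036 to 0.71 for MRPL54, -0.15 to 0.11 for MRPS36 and -2.34 to 0.082 for MRPS24.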
